A study of Mus musculus with 20 samples.

Results

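The 9 genes described here are Cdx1, Cdx2, Hnf4a, Klf4, Klf5, Hoxb13, Hoxd10, Hoxd12 and Hoxd13, a set of transcription factors named for intestinal identity and for position along the gut. They were picked by name, with earlier results of these data known, out of 32991 mouse genes that the deposited tables cover. The level of a gene in a mouse was the sum of the FPKM (sequenced fragments scaled by transcript length and by the depth of the library) of its Ensembl transcripts. RNA had been sequenced from the colon of 20 male C57BL/6 mice, 5 in each of 4 groups, with 1 library per mouse. Control mice had received double distilled water by gavage for 91 days, and PZH mice 250 mg/kg/d Pien Tze Huang, a traditional Chinese formula, over the same time. Model mice had received the water as well as azoxymethane (AOM, a carcinogen, 12.5 mg/kg, injected once into the peritoneum on day 1) and dextran sulfate sodium (DSS, which injures the colon lining) at 2% in the drinking water for 5 days in each of 4 cycles, a model of colitis-associated cancer. Model + PZH mice had received AOM, DSS and Pien Tze Huang together. Which stretch of the colon was taken from each mouse, and whether tumours were part of it, was not given in the sources used here.

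Cdx1 and Cdx2 encode caudal-type homeodomain factors that switch on intestinal genes, and loss of Cdx2 lets gut epithelium take on features of other parts of the tract. Hnf4a encodes a nuclear receptor that drives genes of absorptive cells and is transcribed from a pair of start regions. Klf4 and Klf5 encode zinc finger factors of the Kruppel-like family: Klf4 is typical of differentiated cells and of goblet cells, Klf5 of dividing cells at the crypt base. Hox genes lie in 4 clusters in the order in which they are used along the body axis, and those with the highest numbers, such as Hoxb13 and Hoxd13, mark the hindgut and the most distal colon.

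The sequence upstream of a start site is shown for the genes whose levels moved against or with each other between mice and for both Hnf4a start regions. The bases come from RefSeq (GRCm38.p6), end where the GENCODE gene or the RefSeq transcript begins, and are written 5′ to 3′ on the gene's strand. Capitals mark TATAAA or its reverse complement TTTATA, which overlap in Hoxd13. Cdx2 is shown from chr5:147307271-147307499 (minus strand), Hoxd12 from chr2:74674763-74675012 and Hoxd13 from chr2:74667975-74668224 (both plus strand). The upstream Hnf4a region is chr2:163506607-163506807 and the downstream one chr2:163546905-163547154 (both plus strand).
Cdx2: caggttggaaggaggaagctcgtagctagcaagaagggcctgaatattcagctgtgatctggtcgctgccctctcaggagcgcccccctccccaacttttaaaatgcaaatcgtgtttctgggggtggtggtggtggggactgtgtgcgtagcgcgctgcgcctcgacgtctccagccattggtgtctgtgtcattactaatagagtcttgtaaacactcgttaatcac
Hoxd12: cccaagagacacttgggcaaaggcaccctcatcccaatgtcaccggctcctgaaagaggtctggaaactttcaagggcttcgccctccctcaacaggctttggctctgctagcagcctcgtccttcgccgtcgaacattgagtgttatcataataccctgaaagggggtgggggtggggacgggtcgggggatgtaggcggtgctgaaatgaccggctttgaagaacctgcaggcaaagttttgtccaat
Hoxd13: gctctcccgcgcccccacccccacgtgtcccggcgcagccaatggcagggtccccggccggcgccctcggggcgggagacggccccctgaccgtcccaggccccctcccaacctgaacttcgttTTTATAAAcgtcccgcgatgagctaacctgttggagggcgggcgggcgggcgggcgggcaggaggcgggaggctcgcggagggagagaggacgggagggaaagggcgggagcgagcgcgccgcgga
Hnf4a upstream start: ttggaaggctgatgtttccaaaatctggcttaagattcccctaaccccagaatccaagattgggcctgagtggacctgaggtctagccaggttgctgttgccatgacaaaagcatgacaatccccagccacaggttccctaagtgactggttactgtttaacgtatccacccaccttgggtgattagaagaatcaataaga
Hnf4a downstream start: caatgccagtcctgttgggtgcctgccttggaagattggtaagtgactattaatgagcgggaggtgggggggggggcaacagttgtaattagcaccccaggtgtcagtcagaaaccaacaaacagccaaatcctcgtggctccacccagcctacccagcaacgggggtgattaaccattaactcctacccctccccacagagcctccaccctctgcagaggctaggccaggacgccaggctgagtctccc

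In the 250 bases upstream of the RefSeq start, Hoxd13 had 31 CG pairs and 74.4% G or C, whereas Hoxd12 had 10 and 55.6%, Cdx2 13 and 55.2%, and the Hnf4a regions 3 and 51.2% (upstream) and 4 and 57.6% (downstream). The median of 32851 mouse promoters of the same length was 6 CG pairs and 52.4%. The stretches printed above for Cdx2 (229 bases) and upstream Hnf4a (201 bases) stop at the GENCODE gene. Their counts cover the full 250 bases and so more than is printed. TTTATG was searched as a CDX-type site, TTTACG as a HOX13-type site and CACACCC as a KLF-type site, each on both strands. None of these 3 words was present in the windows shown, nor in those of Klf4 and Hoxd10. Over all promoters 10.8% held TTTATG, 2.62% TTTACG, 6.93% CACACCC and 12.4% TATAAA.

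The mice had been sequenced to a like depth, estimated at 15.4 to 19.5 M fragments from the smallest step of the FPKM values, with group medians of 16.28 to 17.02 M. Median estimated fragments per mouse were 1137 for Cdx2, 1013 for Hoxd13 and 63.5 for Hoxd12, and for Cdx1, Hnf4a, Klf4, Klf5 and Hoxb13 no mouse had under 2128. Hoxd10 never passed 2.51 fragments. The epithelial gene Cdh1 lay between 214 and 310 FPKM in all 20 mice, and the colon surface gene Slc26a3 at 38.4 FPKM or more. The epithelial genes Krt8 and Epcam jumped between mice, Krt8 from 0.0706 to 3071 FPKM and Epcam from a listed 0 to 865, and sums over Ensembl transcripts leave out fragments that were assigned to transcripts assembled without a gene name. Control mice 17 and 50 stood apart from the other 18 mice by Krt13, a keratin of squamous epithelium, at 125 and 126 FPKM, against at most 12.4 in any other mouse.

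In Control mice the 9 genes fell into 3 levels whose mice did not overlap. The first held Klf4 with 241 ± 38.5 FPKM (SD, n = 5), Cdx1 with 215 ± 37.7, Hoxb13 with 172 ± 19.4, Klf5 with 145 ± 25.7 and Hnf4a with 129 ± 31.5. Neighbours in that order overlapped. The second held Cdx2 with 31.8 ± 27.2 FPKM, Hoxd13 with 31.5 ± 8.97 and Hoxd12 with 4.14 ± 2.70. Cdx2 overlapped both Hoxd13 and Hoxd12, since Control mouse 50 had 7.23 FPKM of Cdx2 and 7.57 of Hoxd12, while Hoxd13 lay above Hoxd12 in every Control mouse. Hoxd10 was last with 0.0480 ± 0.0127. Among the 28491 genes above 0 in Control, Klf4 ranked 283, Cdx1 320 and Hoxb13 386 by mean FPKM, so that these factors belonged to the most abundant messages of the tissue, and Hoxd10 ranked 22831. In PZH mice the order was Cdx1, Klf4, Hoxb13, Klf5, Hnf4a, Cdx2, Hoxd13, Hoxd12, with Klf4 and Hoxb13 not overlapping there. In Model mice Klf4 had 98.6 ± 28.9 FPKM, behind Cdx1 (139 ± 21.9), Klf5 (136 ± 20.2) and Hoxb13 (112 ± 7.40), and Hoxd13 (26.1 ± 22.5) stood before Cdx2 (17.1 ± 7.91). In Model + PZH mice Cdx1 was first with 182 ± 50.5 FPKM and Klf4 second with 159 ± 58.0.

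**Figure D1:**
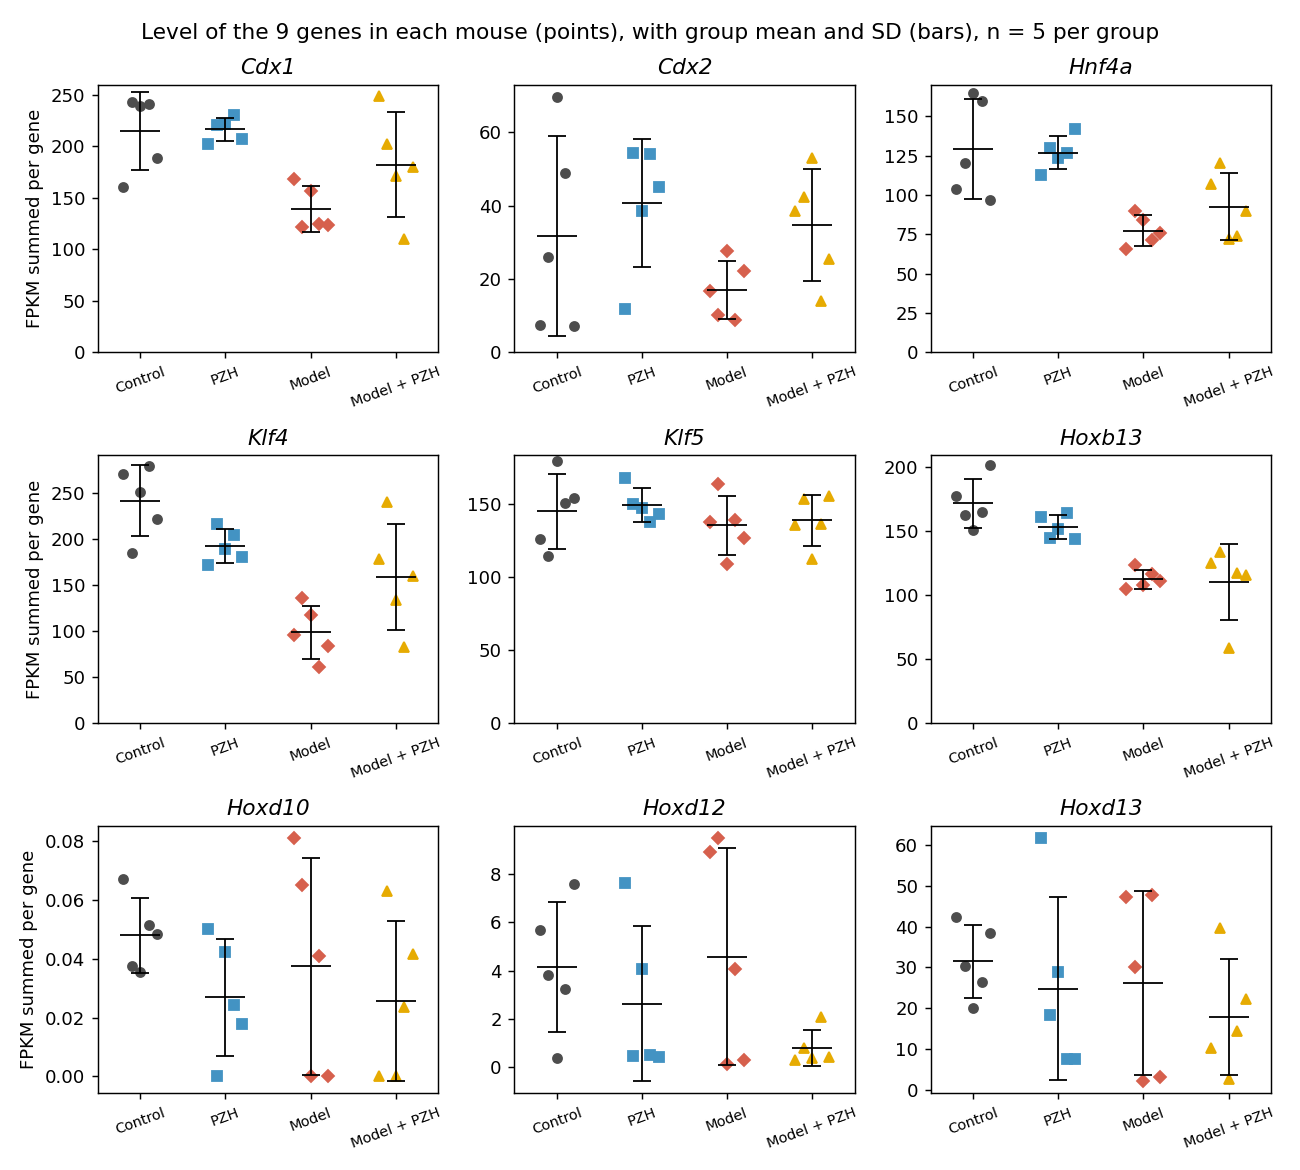
Level of each of the 9 genes in FPKM (y axis, linear) for the 4 groups (x axis). Points are single mice, the long bar is the group mean and the error bar the SD (n = 5). All Model mice lie below all Control mice for Hnf4a, Klf4 and Hoxb13, Klf5 is level across the groups, and Hoxd12 spreads from 0.154 to 9.47 FPKM within the Model group.

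Model against Control asked what AOM/DSS colitis-associated cancer had changed. Klf4, Hoxb13, Hnf4a and Cdx1 fell, and Klf5, Cdx2, Hoxd12 and Hoxd13 did not pass the test (limma on log2(FPKM + 1), Benjamini-Hochberg adjustment over 15812 genes, adjusted P under 0.05). Genes entered the test if 5 or more of the 10 mice had 0.5 FPKM or more, and of the 8 that did so here, 4 were thus lower and 0 higher, beside 7.23% of all tested genes called lower and 16.4% called higher. For 3 of the 8, Klf4, Hoxb13 and Hnf4a, no Model mouse reached the lowest Control mouse, which held for 5.43% of all tested genes. The samples are pieces of whole tissue, so fewer cells of a type and less RNA per cell cannot be told apart in any of these values.

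Klf4, the factor of differentiated and goblet cells (chr4:55527143-55532466, GRCm38), was at 270, 185, 251, 279 and 222 FPKM in Control mice 17, 37, 41, 48 and 50. It was at 95.6, 136, 117, 61.1 and 83.8 FPKM in Model mice 23, 30, 33, 44 and 52. The Model mean was 40.8% of the Control mean, with a log2 difference of -1.32 (SE 0.20, 95% interval -1.77 to -0.87, adjusted P = 0.00128 by limma). This was the largest fall among the 8 tested genes.

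Hoxb13, the most posterior gene of its cluster (chr11:96194316-96197447), was at 177, 163, 151, 165 and 202 FPKM in the same Control mice and at 105, 123, 107, 116 and 111 in the Model mice. It was the steadiest of the genes within both groups, where the highest mouse had 1.34 times (Control) and 1.18 times (Model) the level of the lowest. The log2 difference was -0.60 (SE 0.10, 95% interval -0.81 to -0.39, adjusted P = 0.00157 by limma).

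Hnf4a, the nuclear receptor of absorptive cells (chr2:163506808-163572910), was at 104, 120, 165, 160 and 96.9 FPKM in Control mice and at 65.5, 89.8, 84.1, 71.3 and 75.8 in Model mice. The log2 difference was -0.71 (SE 0.16, 95% interval -1.07 to -0.34, adjusted P = 0.0109 by limma). Nearly all of its signal came from transcripts of the downstream start region. ENSMUST00000018094, which starts at chr2:163547188, carried 93.5 to 156 FPKM in Control mice. ENSMUST00000143911, which starts at chr2:163506808 next to the upstream region shown above, carried 3.20 to 10.6 FPKM in Control mice and 4.98 to 6.21 in Model mice, or 3.30 to 7.40% and 5.92 to 7.61% of the gene. These shares were not tested, and the upstream transcript is a fragment of 431 bases. PZH mouse 53 was the exception in the choice of transcript: ENSMUST00000109411, which starts 1 base before ENSMUST00000018094, was listed there at 113 FPKM and the latter at 17.2.

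Cdx1, the caudal factor found throughout the intestinal epithelium (chr18:61018862-61036199), was at 161, 243, 239, 241 and 189 FPKM in Control mice and at 169, 122, 157, 125 and 124 in Model mice. The groups overlapped through Control mouse 17, which lay below Model mouse 23. The log2 difference was -0.62 (SE 0.15, 95% interval -0.95 to -0.29, adjusted P = 0.0131 by limma).

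Cdx2, the paralogue of Cdx1 (chr5:147300805-147307270), was at 7.35, 25.9, 69.7, 48.9 and 7.23 FPKM in Control mice, a 9.64-fold spread within the group. Model mice had 16.7, 10.3, 27.6, 8.84 and 22.3 FPKM, inside the Control range. The log2 difference was -0.46 (95% interval -1.82 to 0.89, adjusted P = 0.636 by limma), an interval that leaves room for a large fall as well as for a rise. The lowest Control values belonged to mice 17 and 50, which carried the squamous keratin. Without these 2 mice the log2 difference was -1.45 (adjusted P = 0.045), in a comparison added after the values were seen, and Klf4, Hoxb13, Hnf4a and Cdx1 were called as before. The part of squamous tissue in the Cdx2 values was not tested.

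Klf5, the factor of dividing crypt cells (chr14:99298691-99315036), lay between 114 and 180 FPKM in Control mice and between 109 and 164 in Model mice. Its log2 difference of -0.09 had an interval of -0.41 to 0.23 (adjusted P = 0.691 by limma). Hoxd13 (chr2:74668310-74671599) lay between 20.1 and 42.3 FPKM in Control mice but at 47.2, 30.1, 2.14, 47.7 and 3.23 in Model mice, with a log2 difference of -0.999 (95% interval -2.70 to 0.71, adjusted P = 0.392). Hoxd12 (chr2:74675013-74677705) was at 5.68, 3.84, 0.406, 3.22 and 7.57 FPKM in Control mice and at 8.90, 9.47, 0.154, 4.07 and 0.314 in Model mice, with a log2 difference of -0.21 (adjusted P = 0.866). Model mice thus held both the highest Hoxd12 values of the series (mice 23 and 30) and its lowest (mouse 33). Hoxd10 (chr2:74691924-74695105) had at most 2.51 estimated fragments in any mouse and was listed at 0 in 5 of 20. It did not pass the filter, and an exact two-sided permutation test of its log2(FPKM + 1) values gave P = 0.508 for Model against Control and 0.0952 to 0.603 for the other comparisons.

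Other tissue markers moved with the Model group. The 8 leukocyte markers summed to 395 to 889 FPKM in Model mice and 174 to 378 in Control mice, and 4 of the 8 were called higher. The 8 smooth muscle markers summed to 1024 to 1794 FPKM in Model mice and 2305 to 5304 in Control mice, and all 8 were called lower. The 10 small intestine markers summed to 974 to 3470 FPKM in Model mice and 7.94 to 75.5 in Control mice. Most of the Model sum was Lyz1 (mean 1222 FPKM) and Defa24 (671). Gata4, Lct, Sis, Fabp1 and Apoa4 had Model means of 0.029 to 0.064 FPKM and Pdx1 0.515, and these were not tested. Of the 4 of them that were tested, the Paneth cell genes Defa24 (9.17 on the log2 scale) and Lyz1 (7.14) and the antimicrobial lectin gene Reg3g (4.55) were called higher and the bile acid binding gene Fabp6 (-2.98) lower, genes that were named after their values were seen. Fibroblast markers had 2 of 8 called higher and 1 lower, and squamous markers 0 of 5. Of the 7 tested epithelium markers, 2 were called lower. Their part in the falls of Klf4, Hoxb13, Hnf4a and Cdx1 was not tested. These 4 falls were also called with the epithelium marker score as a covariate. That score holds Krt8 and Epcam, which jump between mice, so it cannot stand for the epithelial content of a sample.

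**Figure D2:**
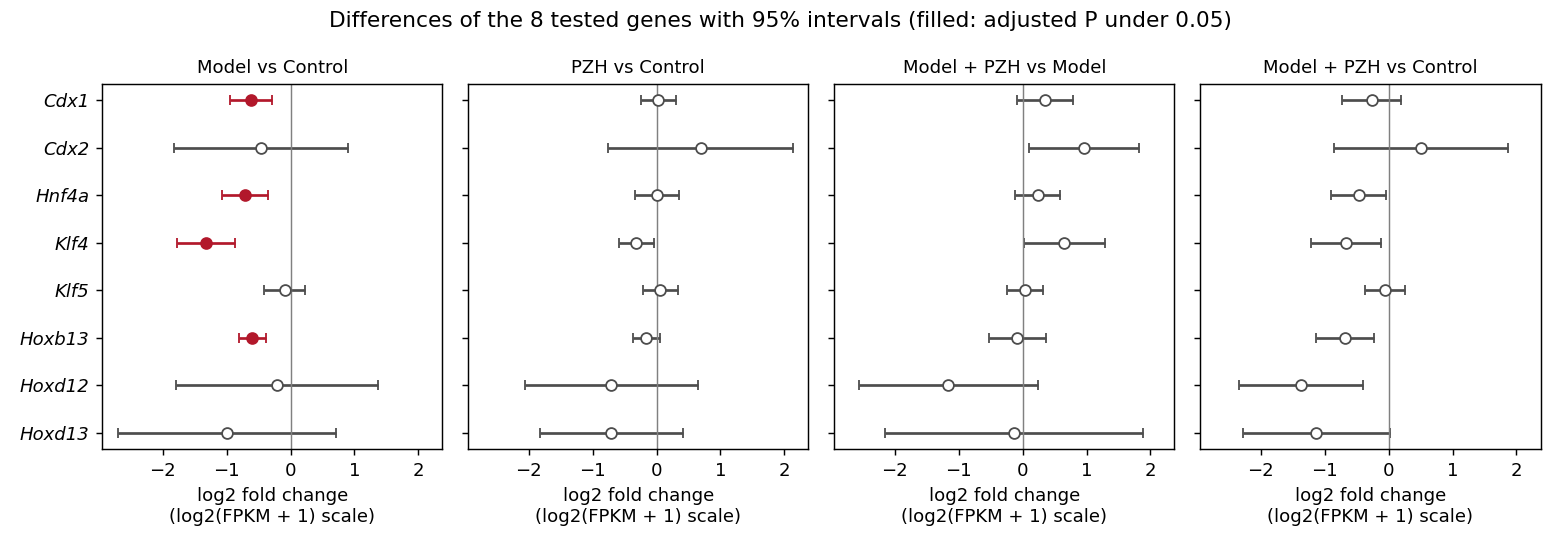
Log2 differences (x axis, log2(FPKM + 1) scale) of the 8 tested genes (y axis) in 4 comparisons, with 95% intervals. Filled points passed an adjusted P of 0.05: Cdx1, Hnf4a, Klf4 and Hoxb13 in Model against Control, and none in the other comparisons, where the intervals of Cdx2, Hoxd12 and Hoxd13 were wide.

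Genes with related roles gave the setting of these falls. In a list of 26 intestinal transcription factors, 23 were tested in Model against Control, of which 3 were called higher and 5 lower, with a median log2 difference of -0.09 beside 0.09 over all genes. Those lower were Klf4, Hnf4a, Cdx1, the vitamin D receptor Vdr (-1.29, adjusted P = 0.00568) and the nuclear receptor Nr5a2 (-1.08, adjusted P = 0.0306). Those higher were Gata5, a GATA factor (3.21, adjusted P = 3.78e-06), the homeobox gene Isx (1.53, adjusted P = 0.00241) and Prdm1, a repressor of adult enterocyte genes (0.96, adjusted P = 0.0195). Gata5 was at 6.25 to 14.9 FPKM in Model mice and at most 0.0785 in Control mice.

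Among 21 genes of differentiated colonocytes, all tested, 8 were called lower and 0 higher, with a median log2 difference of -0.57. Slc26a3, the chloride/bicarbonate exchanger of the colon surface, fell by 2.39 on the log2 scale (adjusted P = 0.000231 by limma), from 299 to 536 FPKM in Control mice to 38.4 to 126 in Model mice. The water channel gene Aqp8 (-2.36), the carbonic anhydrase genes Car1 (-2.22) and Car4 (-2.15) and the guanylin gene Guca2a (-1.82) fell without overlap, and the brush border gene Cdhr2 fell by 0.74. Among Kruppel-like genes, 2 of 13 tested were lower, Klf4 and Klf6 (-0.52, adjusted P = 0.0335), and 2 higher, Klf11 (0.61, adjusted P = 0.0146) and Klf16 (0.45, adjusted P = 0.0273).

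**Figure D3:**
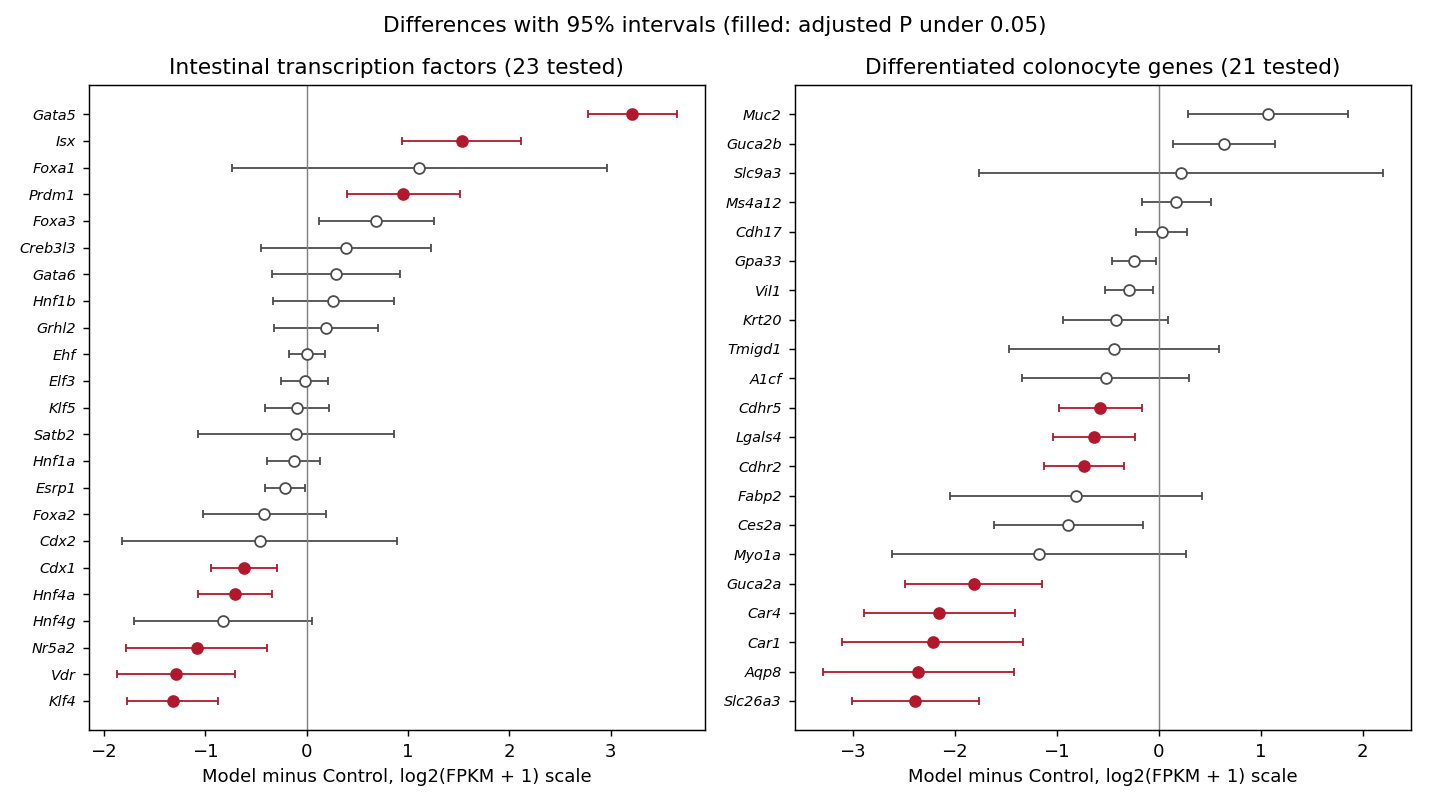
Log2 differences between Model and Control (x axis, log2(FPKM + 1) scale) with 95% intervals for the tested intestinal transcription factors (left) and differentiated colonocyte genes (right). Filled points passed an adjusted P of 0.05: 5 lower and 3 higher on the left, 8 lower and 0 higher on the right, with Klf4 lowest on the left.

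The Hox genes placed Hoxb13 and the Hoxd genes within their clusters. Of 39 Hox genes, 37 were in the tables and 21 were tested in Model against Control. In Control mice Hoxb13 was far above the rest, followed by Hoxd13, Hoxa10 (29.8 FPKM), Hoxa13 (24.3) and Hoxa9 (13.1). The Hoxc genes in the tables all had means under 0.1 FPKM there. Within the Hoxd cluster Hoxd11 was at 7.76 FPKM and Hoxd9 at 1.23, on either side of Hoxd10 with its near-zero sum. Fragments assigned to assembled transcripts are missing from these sums, and their part in the low Hoxd10 values was not tested. Model mice had 1 of the 21 called higher and 3 lower, with a median log2 difference of -0.17. Hoxa9 rose by 0.79 (adjusted P = 0.00956 by limma) without overlap, from 9.22 to 15.5 FPKM in Control mice to 18.7 to 32.8. The lower genes were Hoxb13, Hoxb2 (-0.53, adjusted P = 0.0171) and Hoxb5 (-0.56, adjusted P = 0.044), the latter 2 at means of 0.966 and 1.44 FPKM in Control. The noncoding RNA Hottip of the Hoxa cluster fell by 0.87 (adjusted P = 0.0476), and 1 of 2 tested RNAs of that list was called.

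**Figure D4:**
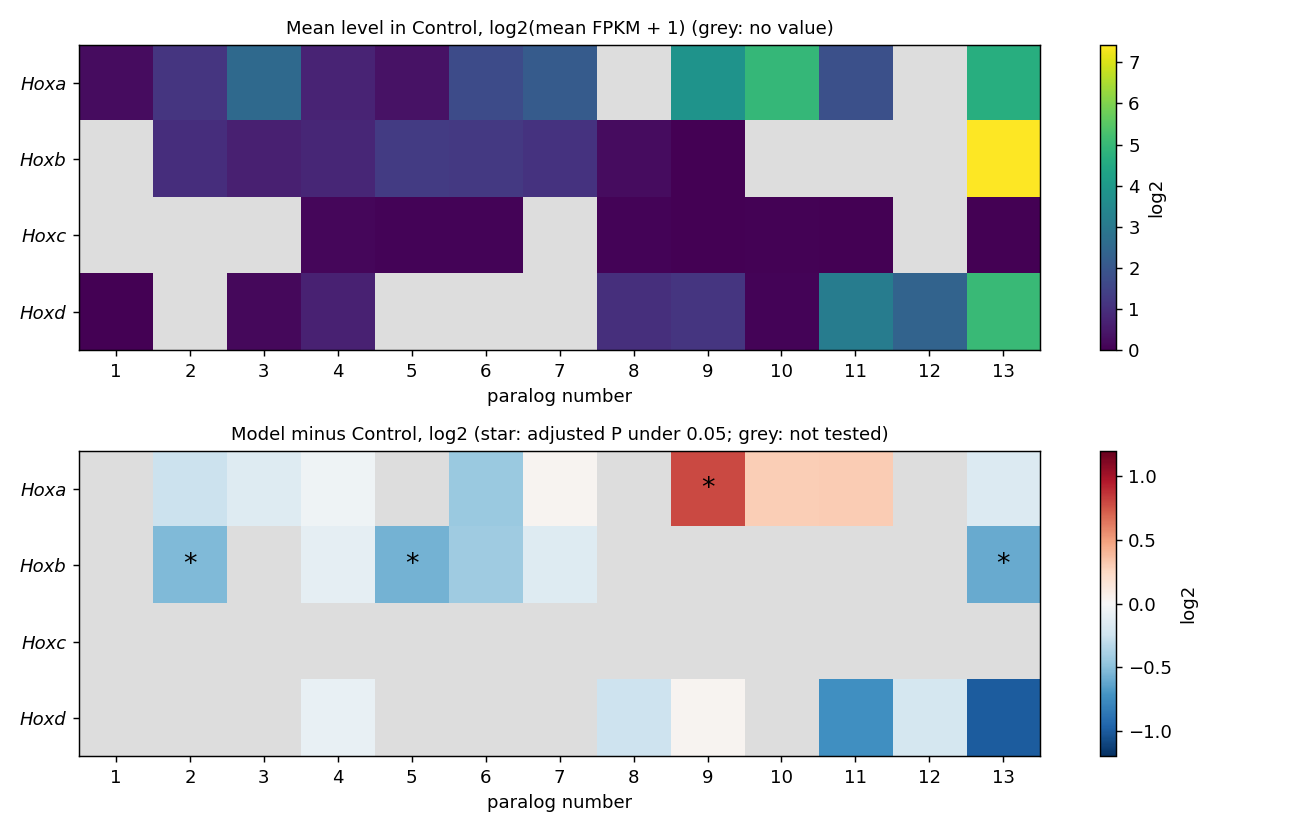
Hox genes by cluster (rows) and paralog number (columns). The upper panel shows the mean level in Control as log2(mean FPKM + 1), with Hoxb13 highest, and the lower panel the log2 difference of Model from Control, where stars mark the 4 genes with adjusted P under 0.05 (Hoxa9 higher, Hoxb2, Hoxb5 and Hoxb13 lower).

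PZH against Control asked what Pien Tze Huang had done without AOM/DSS. None of the 8 tested genes passed limma's test at an adjusted P of 0.05, beside 0.00645% of all tested genes (1 of 15506). At an unadjusted P under 0.05 there was 1 of 8, Klf4, beside 8.84% of all genes. Klf4 lay at 171, 217, 189, 204 and 181 FPKM in PZH mice 8, 14, 27, 46 and 53, 2 of them below the lowest Control mouse. Its log2 difference was -0.32 (95% interval -0.59 to -0.04, adjusted P = 0.539). The intervals for Cdx1 (-0.25 to 0.30), Hnf4a (-0.34 to 0.35) and Klf5 (-0.22 to 0.33) were narrow. Those for Cdx2 (-0.75 to 2.13), Hoxd12 (-2.06 to 0.65) and Hoxd13 (-1.82 to 0.41) were wide. Smooth muscle markers summed to 1083 to 2488 FPKM in PZH mice, and 5 of the 8 had an unadjusted P under 0.05, all lower.

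Model + PZH against Model asked what the formula had done in mice with AOM/DSS, and shares its Model mice with Model against Control. None of the 8 genes passed limma's test, beside 0.00629% of all tested genes (1 of 15888). At an unadjusted P under 0.05 there were 2 of 8, Cdx2 and Klf4, both with differences above 0, beside 11.7% of all genes in either direction. Cdx2 was at 38.7, 42.4, 53.2, 13.9 and 25.6 FPKM in Model + PZH mice 2, 13, 15, 35 and 36, so that 3 of these 5 mice lay above every Model mouse. The log2 difference of Cdx2 was 0.96 (95% interval 0.10 to 1.82, adjusted P = 0.389). Klf4 was at 178, 240, 134, 82.3 and 159 FPKM in the same mice, with a log2 difference of 0.65 (95% interval 0.02 to 1.28, adjusted P = 0.418). Cdx1 was at 249, 202, 171, 110 and 180 FPKM in these mice, against at most 169 in Model mice. Its log2 difference was 0.35 (interval -0.09 to 0.79). Hnf4a had a difference of 0.24 (interval -0.11 to 0.59) and Hoxb13 one of -0.08 (interval -0.53 to 0.36). Mouse 35 had the lowest Cdx1, Cdx2 and Klf4 of its group and the highest leukocyte sum, 755 FPKM against 301 to 444 in the other 4. Without mouse 35 the adjusted P was 0.0645 for Cdx2, 0.0716 for Klf4 and 0.0732 for Cdx1, while 808 genes were called over the whole table. No gene of the intestinal factor, Hox, Kruppel-like or colonocyte lists was called in this comparison or in PZH against Control. Of the 21 colonocyte genes, 4 had an unadjusted P under 0.05 here, all higher than in Model.

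Model + PZH against Control gave no called gene among the 8, beside 0.871% of all tested genes called lower and 1.55% called higher. At an unadjusted P under 0.05 there were 4 of 8 (Hoxb13, Hoxd12, Klf4 and Hnf4a, all lower), beside 20.9% of all genes in either direction. Hoxb13 came nearest to the threshold: all 5 Model + PZH mice, at 125, 134, 58.7, 118 and 116 FPKM, lay below every Control mouse (log2 difference -0.68, 95% interval -1.14 to -0.22, adjusted P = 0.101 by limma). With all 20 mice in one model its adjusted P was 0.0127. Hoxd12 was at 0.293, 0.798, 0.397, 2.07 and 0.429 FPKM, below 4 of the 5 Control mice in every case (log2 difference -1.37, 95% interval -2.34 to -0.40, adjusted P = 0.116). Without Control mouse 41, whose Hoxd12 was 0.406 FPKM, the difference was -1.78 (adjusted P = 0.0317). Isx was the only gene of the intestinal factor list called there (1.47, adjusted P = 0.0446). The remaining differences ran from -1.13 (Hoxd13) to 0.50 (Cdx2).

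The interaction, that is the difference between Model + PZH and Model less the one between PZH and Control, asked whether the formula went with another change in AOM/DSS mice than in untreated ones. None of the 8 genes passed, beside 0.0118% of all tested genes, and 1 had an unadjusted P under 0.05, beside 10.3%. That gene was Klf4 (0.97 on the log2 scale, 95% interval 0.28 to 1.65, adjusted P = 0.375 by limma). Its difference with PZH was -0.32 without AOM/DSS and 0.65 with it, neither of which was called. Its value without mouse 35 was 1.18 (adjusted P = 0.0231).

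Cdx2, Hoxd12 and Hoxd13 differed widely between mice of the same group. The highest mouse of a group had 3.12 to 9.64 times the Cdx2 level of the lowest, 2.11 to 22.3 times its Hoxd13 and 7.06 to 61.5 times its Hoxd12, against 1.14 to 2.28 times for Hoxb13. In 3 of 4 groups the mouse with the least Cdx2 had the most Hoxd12: Control mouse 50 (7.23 and 7.57 FPKM), PZH mouse 8 (11.9 and 7.62) and Model + PZH mouse 35 (13.9 and 2.07). In the Model group mice 44, 30 and 23 had the 3 lowest Cdx2 values and the 3 highest Hoxd12 values. After each group's mean was taken off, log2(FPKM + 1) of Cdx2 and Hoxd12 had a Pearson r of -0.74 and a Spearman rho of -0.80 over 20 mice. Without the 2 mice whose Cdx2 lay farthest from its group mean, r was -0.63. For Cdx2 and Hoxd13, r, rho and r without the same 2 mice were -0.55, -0.71 and -0.49. Hoxd12 and Hoxd13 rose and fell together with r of 0.78 and rho of 0.81. Without the 2 mice whose Hoxd12 lay farthest from its group mean, r was 0.70. These values describe the mice and were not tested, and each pair shares the libraries and their depth.

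**Figure D5:**
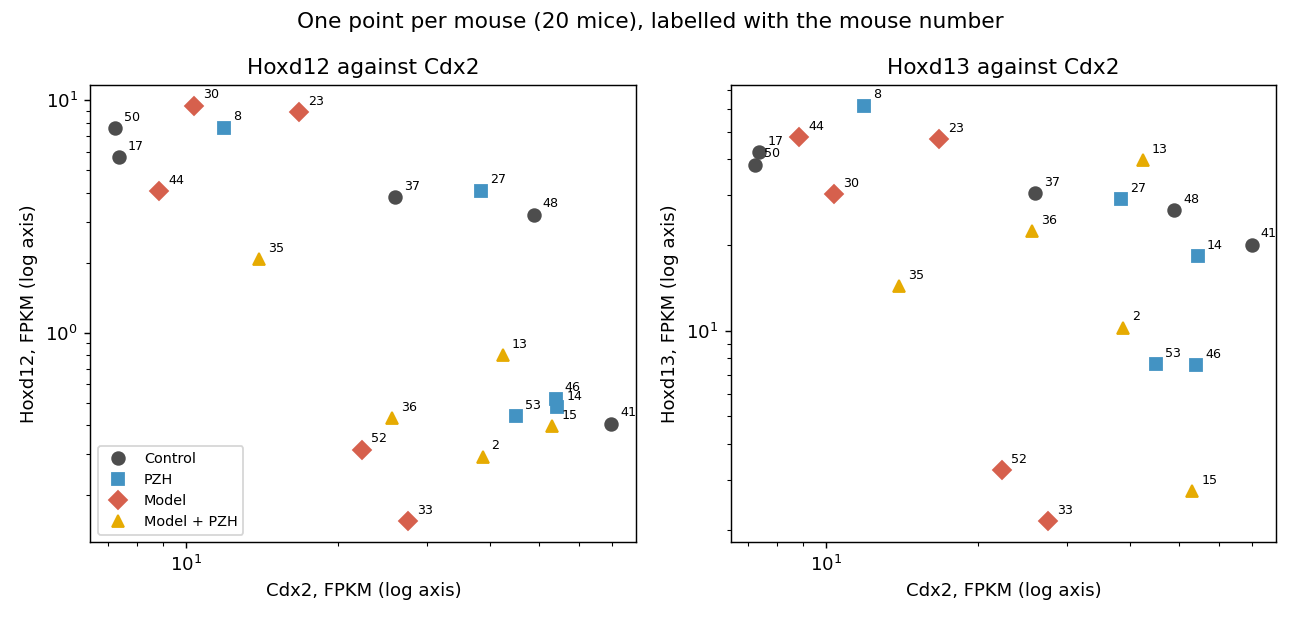
Hoxd12 (left) and Hoxd13 (right) against Cdx2 in FPKM, on log axes, with 1 point per mouse (20 mice), coloured by group and labelled with the mouse number. Mice with under 20 FPKM of Cdx2 sit at the upper left, except Model + PZH mouse 35 with 2.07 FPKM of Hoxd12 and 14.4 of Hoxd13. The Control, PZH and Model mice each span both ends of the Hoxd12 range.

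The genes most like each of the 8 were picked by Pearson r of deviations from group means over the same 20 mice. They had the largest r among 13737 genes, so the values are high in part through the picking, and they were not tested. Hoxd13 was most like its cluster neighbours Hoxd11 (0.93) and Evx2 (0.91) and then Lix1 (0.87), and Hoxd12 was most like Evx2 (0.86), Rdx (0.85) and Hoxd11 (0.85). Hoxd11 itself ran from 0.147 to 13.1 FPKM in Model mice. Cdx2 was most like Zbtb10 (0.95), the dipeptidase gene Dpep1 (0.93) and Cgref1 (0.92), and Cdx1 like Nans (0.91), Bdh1 (0.90) and Mgat4b (0.88). Klf4 was most like Cnnm4 (0.94), Tgoln1 (0.90) and Scnn1a (0.89), a subunit of the sodium channel of the distal colon. Hnf4a was nearest to Bag3 (0.87), Rasd2 (0.85) and Chga (0.85), and Klf5 to Rbak (0.84), Cachd1 (0.83) and Gm15947 (0.80).

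Hoxb13 went with Ptcd1 (0.92), Lypd8 (0.92) and Rgma (0.88), but all these rested on Model + PZH mouse 15. That mouse had 58.7 FPKM of Hoxb13, 0.523 of Ptcd1 and 0.124 of Rgma. It had 87.7 FPKM of Lypd8, a surface gene of the distal colon, against at least 4778 in every Control, PZH and Model mouse. Fragments assigned to assembled transcripts are missing from these sums, and their part in the low values was not tested. Without mouse 15 the r values were 0.40, 0.38 and 0.39 over 19 mice. The Hoxd13 of mouse 15 (2.73 FPKM) was the lowest of its group and its Cdx2 (53.2) the highest.

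Marker sums also moved with the genes within groups. Deviations in the leukocyte score had an r of -0.86 with Hnf4a, -0.77 with Cdx1, -0.73 with Klf4 and -0.70 with Cdx2, against -0.14 with Hoxb13. The colonocyte score went with Klf4 (0.72), Cdx2 (0.61), Cdx1 (0.60) and Hnf4a (0.47), and against Hoxd12 (-0.51), Hoxd13 (-0.44), Hoxb13 (-0.32) and Klf5 (-0.14). The small intestine score, in Model mice carried mainly by Lyz1, Defa24 and Reg3g, went most against Klf4 (-0.89), Hnf4a (-0.74) and Cdx1 (-0.70). Its r was -0.45 with Cdx2 and ran from -0.27 (Klf5) to 0.27 (Hoxd12) for the other genes but Hoxd10. The squamous score went most against Cdx2 (-0.78), Cdx1 (-0.71) and Hnf4a (-0.66), with r from -0.20 (Klf4) to 0.36 (Hoxd12) for the others. It was 4.77 and 4.18 in Control mice 17 and 50 against 0.122 to 0.256 in the other Control mice. In Model + PZH mouse 35 it was 2.22, the highest of that group. No r was computed without these mice. The part of the cells behind these scores in the levels of the 9 genes was not tested.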

How the data were processed

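Colon RNA from 20 mice was examined, 5 per group as the labels give them, with 1 library per mouse and mice that differ between groups. The authors filtered the reads, aligned them to mm10 with HISAT2 and assembled and quantified transcripts with StringTie, and the FPKM values they deposited cover 118434 transcripts per mouse, with no counts. Of these, 96182 carry Ensembl identifiers, 96032 of which matched GENCODE M21, and 22252 were assembled without a gene name. The FPKM of Ensembl transcripts were summed per gene, so fragments assigned to assembled transcripts are missing from their gene. The labels name an rRNA depletion kit, the study's methods add poly(A) selection, and the extraction text of the labels names the abdominal aorta where the tissue label is colon.

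Genes with at least 0.5 FPKM in at least 5 mice of a comparison were tested as log2(FPKM + 1) with limma 3.58.1 in R 4.3.3 (trend, no covariates, the 10 mice compared, and all 20 for the interaction), and P values were adjusted over all genes tested. Differences on this scale understate those of low genes. The method was tested on simulated data. Depth was estimated from the step of FPKM multiplied by length, on which 45.5 to 56.0% of low values fell, so it is uncertain. The genes and lists were chosen with earlier results of these data known. Named beside the 9 genes were those called in Model against Control (per list the 6 smallest adjusted P, plus Nr5a2 and Prdm1, added after their values were seen) and the 3 genes most like each, among genes with at least 1 FPKM in at least 10 mice. Python 3.11.15 with scipy 1.17.1 gave the exact permutation tests. Alternatives were another scaling (median of ratios), a pseudocount of 0.1, other filters, all 20 mice in one model, an epithelium score as covariate and leaving out mice.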

Additional observations from a re-analysis of the deposited data

Results flagged for a closer look

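The 8 genes with a measurable level give 32 sets of 5 mice, and in 2 of them a mouse lay farther from the others than Dixon's 95% limit allows, where chance gives about 1 in 20. Hoxb13 in Model + PZH mouse 15 was 58.7 FPKM, below 116 to 134 FPKM in the other 4 mice of the group. Hoxd12 in Model + PZH mouse 35 was 2.07 FPKM, above 0.293 to 0.798 in the other 4.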

How the results depend on the processing

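The 4 falls in Model against Control (Klf4, Hoxb13, Hnf4a, Cdx1) were called under all 18 alternatives, 10 of which leave out 1 mouse each, with log2 differences of -1.45 to -1.16 for Klf4 and adjusted P up to 0.0385 for Cdx1. With Control mice 17 and 50 left out, Cdx2 was called as well, which makes 5. For Model + PZH against Control the count of genes called among the 8 was 1 in place of 0 with all 20 mice in one model (Hoxb13), and 0 to 1 when 1 mouse was left out (Hoxd12 without Control mouse 41). For the interaction it was 0 to 1 when 1 mouse was left out (Klf4 without Model + PZH mouse 35). The cause was not tested. PZH against Control and Model + PZH against Model gave 0 under every alternative run. Counts over all genes were less stable: Model + PZH against Model called 1 gene, 89 with all 20 mice in one model and 1 to 808 without 1 mouse, and Model + PZH against Control 378, 1503 with all 20 mice, 98 without the filter and 78 to 495 without 1 mouse. The epithelium score holds Krt8 and Epcam, which jump between mice, so a score without Epcam was added after seeing the data. That score still holds Krt8, so neither score measures epithelial content. No paired analysis was possible because no mouse number occurs in more than 1 group.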
